A study of Mus musculus with 2 samples.

Results

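Type 1 conventional dendritic cells (cDC1) were followed through droplet-based single-cell RNA libraries of CD45+ cells taken from GL261 tumours, a mouse glioma line growing in the brains of C57BL/6 mice. A cell barcode was taken as cDC1 where it held at least 300 genes, at least 500 UMIs (unique molecular identifiers, each standing for 1 captured RNA molecule) and under 10% of its UMIs on mitochondrial genes. It also had to hold at least 2 UMIs of Xcr1 and Clec9a together, under 0.5% of its UMIs on the macrophage genes C1qa and C1qb, fewer than 2 UMIs of the T cell genes Cd3d, Cd3e and Cd3g, and fewer than 2 of Fscn1, a gene of migratory dendritic cells. This rule found 306 barcodes among the 15234 that passed the limits on genes, UMIs and mitochondrial share. Members were thus chosen by measured values of these same barcodes, and 132 came from the PBS and 174 from the ibudilast library.

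The mice of 1 library received PBS, and those of the other received ibudilast, a small molecule known to inhibit phosphodiesterases and the cytokine MIF, at 20 mg/kg by gavage, 5 times a week for 2 weeks. The control library goes by PBS here, as in its protocol, although its label says untreated. Both groups carried the same implanted tumour line, and how many mice each library pools is not stated. With 1 library per group there is no replicate and no test: each ratio below compares the 2 libraries and not the 2 treatments. The 95% intervals are exact intervals of the counts. They cover counting error only and leave out the spread between cells and between mice.

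cDC1 are a rare lineage that depends on the transcription factors IRF8 and BATF3. They take up dead cells through CLEC9A, a receptor for exposed actin filaments, and present the cell-derived antigen on MHC class I to CD8 T cells. XCR1 is the receptor for XCL1, a chemokine made by NK cells and CD8 T cells. In tumours cDC1 are also known as a source of CXCL9 and CXCL10, chemokines that attract T cells, and of IL-12. After maturation they gain CCR7 and FSCN1 and leave for lymph nodes, so the limit on Fscn1 kept such cells out.

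The 5 marker genes are protein-coding genes of the GENCODE annotation of GRCm38. Xcr1 lies on the minus strand at chr9:123852315-123862029 and Clec9a on the plus strand at chr6:129408862-129424763. Naaa, an acid amidase, lies on the minus strand at chr5:92257659-92278170. Wdfy4, needed for cross-presentation, lies on the minus strand at chr14:32959547-33185508. Irf8, the lineage factor, lies on the plus strand at chr8:120736358-120756694. Xcr1 and Clec9a chose the members, so their values are a description. Xcr1 had a median of 7 UMIs per barcode in the PBS library (range 0 to 43) and 4 in the ibudilast library (0 to 41). Clec9a had a median of 2 UMIs in each (0 to 15 and 0 to 17). Their sum had a median of 8 and 7 UMIs.

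The barcodes just inside the rule carried less of the other markers than those far inside it. Naaa stood at 370 CPM (UMIs per 1000000 UMIs of the summed barcodes) in the 37 PBS barcodes whose Xcr1 and Clec9a summed to 2, and at 278 CPM in the 37 such ibudilast barcodes. It stood at 1054 CPM in the 62 PBS barcodes with a sum of 10 or more and at 1022 CPM in the 73 of the ibudilast library. Just outside, with a sum of 1, 114 PBS barcodes held 208 CPM and 105 ibudilast barcodes 247 CPM. The plasmacytoid gene Siglech ran the other way, at 824 and 153 CPM with a sum of 2 against 6.28 and 4.12 CPM with a sum of 10 or more. Barcodes that met the other limits but held 0.5% to 1% of C1qa and C1qb numbered 40 and 25, with Naaa at 472 and 384 CPM. Those turned away by Fscn1 numbered 9 and 5.

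UMIs of the rule's genes were also seen in barcodes of other cell types. At least 2 UMIs of Xcr1 and Clec9a were held by 1.38% of PBS T cells and 2.11% of ibudilast T cells (at least 3 UMIs of the Cd3 genes; median depth 8640 and 9368 UMIs). The shares were 3.88% and 4.58% of macrophages (C1qa and C1qb at 1% or more of UMIs; median depth 16430 and 13360 UMIs). They were 0.559% and 0.548% of NK cells (at least 2 UMIs of Ncr1 and Klrb1c). Among barcodes with at least 5 UMIs of the monocyte gene Ly6c2, 23 of 840 in PBS (2.74%) and 53 of 1220 in ibudilast (4.34%) held them. The rule does not bar NK or monocyte barcodes, and these counts include the members. With the members left out, 817 and 1168 barcodes with Ly6c2 and 178 and 363 NK cells remained. All or nearly all of the NK and Ly6c2 barcodes that held the rule's genes were thus members. The members themselves were 1.62% and 2.46% of all kept barcodes, so the rule alone cannot tell every cDC1 from such a barcode. Barcodes that met the rule but for 2 or more Cd3 UMIs were deep, at medians of 39928 and 21649 UMIs, and held Naaa at 525 and 317 CPM.

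The label was checked on the markers that the rule did not use, and it held for the members with an Xcr1 UMI but only in part for the rest. Xcr1 was at 0 in 37 PBS members (28.0%, 95% Clopper-Pearson interval 20.6 to 36.5%) and in 36 ibudilast members (20.7%, 14.9 to 27.5%), which passed on Clec9a alone. In the 95 PBS members with Xcr1, Naaa was found in 96.8%, Wdfy4 in 95.8% and Batf3 in 94.7%. In the 138 ibudilast members with Xcr1 the shares were 95.7%, 91.3% and 84.8%. Among the other kept barcodes, which were shallower, they were 52.3%, 25.4% and 46.0% in PBS and 35.7%, 20.0% and 32.7% in ibudilast. Some identity genes were found in fewer PBS members with Xcr1: Gcsam in 53.7%, Tlr11 and Septin3 in 38.95% each and Clnk in 26.3%. In the other kept PBS barcodes their shares were 0.723%, 1.71%, 1.23% and 1.87%. Cadm1 set the members apart less, at 81.7 and 85.0 CPM with Xcr1 against 70.4 and 42.6 CPM in the other kept barcodes. Summed per barcode, Wdfy4, Naaa, Irf8 and the identity list below had a median of 8648 CPM in PBS members with Xcr1 (range 1044 to 14693) and 8708 CPM in ibudilast members with Xcr1 (1645 to 23451). Without Xcr1 the medians were 3465 and 2637 CPM. Naaa had no UMI in 20 of the 37 and 13 of the 36 members without Xcr1. In NK cells, which should lack it, Naaa stood at 17.9 and 32.8 CPM, against 996 and 890 CPM in members with Xcr1.

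Members without Xcr1 carried genes of other dendritic cells. Clec9a is known to be expressed by plasmacytoid dendritic cells (pDC) as well. The summed pDC genes (Siglech, Ccr9, Cox6a2, Klk1, Ly6d, Tcf4) stood at 4637 CPM in PBS and 2492 CPM in ibudilast members without Xcr1, against 63.4 and 83.8 CPM in members with it. At least 2 UMIs of Siglech, Ccr9 and Klk1 were held by 20 of the 37 and 10 of the 36. The cDC2 genes (Cd209a, Clec10a, Mgl2, Sirpa, Itgam, Irf4) stood at 656 and 378 CPM without Xcr1, against 89.7 and 59.9 CPM with it. Since this split was chosen after these values were seen, results are given for all members and again for the members with Xcr1.

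**Figure D1:**
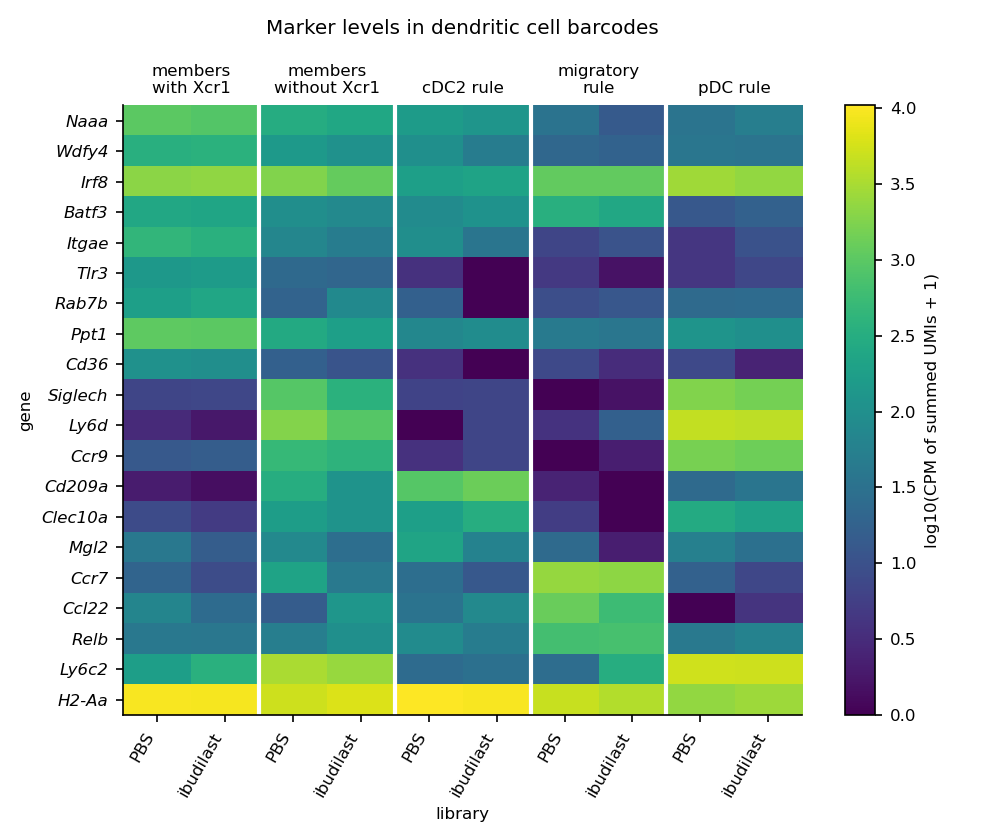
Heat map of 20 marker genes (rows) in members with Xcr1, members without Xcr1, and the cDC2, migratory and plasmacytoid dendritic cell rules, each in the PBS and ibudilast libraries (columns); colour is log10(CPM + 1) of the summed UMIs. Naaa stood at 996 and 890 CPM in members with Xcr1, and Siglech at 904 and 371 CPM in members without it.

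Depth and other cells bear on every comparison below. The kept barcodes had a median of 12234 UMIs in PBS and 8267 in ibudilast. Members were closer, at 17290 and 16216 UMIs, with 3480 and 3388 genes per barcode at the median and 2462747 and 2865841 UMIs in all. Members with Xcr1 were further apart, at medians of 21088 UMIs in PBS and 17755 in ibudilast. The 2 libraries shared 19 barcode sequences, and 0 of them were members in both. Most members were mixed barcodes, which here means at least 2 UMIs of NK, B cell, neutrophil, macrophage or pDC genes: 120 of 132 and 143 of 174. Monocyte genes were not part of that count, and 129 PBS and 170 ibudilast members held at least 2 UMIs of them. The macrophage list, led by Apoe at 1392 and 1498 CPM, summed to 2050 and 2169 CPM. The NK list summed to 54.8 and 71.5 CPM, with at least 2 UMIs in 5 PBS members (3.79%) and 24 ibudilast members (13.8%). Neutrophil genes were near 0 (3.25 and 12.6 CPM), with Cxcr2 and Retnlg at 0. Red cell genes stood at 5.28 and 125 CPM, and 1 ibudilast member without Xcr1 held 209 haemoglobin UMIs. The difference was not confined to that barcode. In members with Xcr1 they stood at 1.98 and 52.2 CPM, with at least 2 UMIs in 0 of 95 PBS and 30 of 138 ibudilast members. The top ibudilast barcode held 3.88% of those UMIs. How far such RNA from other cells bears on weakly detected genes was not tested.

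The share of cDC1 was larger in the ibudilast library when set against all CD45+ barcodes, but not when barcodes rich in C1qa and C1qb were left out. The 132 PBS members were 1.62% of 8155 kept barcodes (95% interval 1.36 to 1.92%) and the 174 ibudilast members 2.46% of 7079 (2.11 to 2.85%), a ratio of 1.52 (1.20 to 1.92). Among the barcodes with C1qa and C1qb under 0.5% of UMIs, 3103 and 4238 in number, cDC1 made up 4.25% and 4.11%, and the ratio of 0.965 (0.765 to 1.22) lay on the other side of 1. Among the barcodes of the cDC1, cDC2 and migratory rules together the shares were 41.3% and 43.6%, a ratio of 1.06 (0.838 to 1.34). The direction thus depended on the base that the members were set against.

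A fixed minimum of UMIs passes deeper barcodes more often. After every barcode was thinned to 2000 UMIs, 39 PBS (0.500%) and 69 ibudilast barcodes (1.07%) met the rule, a ratio of 2.13 (1.42 to 3.24), with 356 and 609 shallower barcodes left out. Members with Xcr1 were 1.16% and 1.95% of kept barcodes, a ratio of 1.67 (1.28 to 2.20), and 3.06% and 3.26% of the C1q-low barcodes (1.06, 0.813 to 1.40). The migratory rule, which takes mature dendritic cells by Fscn1 and Ccr7, gave 158 and 209 barcodes and a like ratio of 1.52 (1.23 to 1.89). The cDC2 rule gave 30 and 16 barcodes, a ratio of 0.614 (0.313 to 1.16). The difference between these ratios was not tested.

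**Figure D2:**
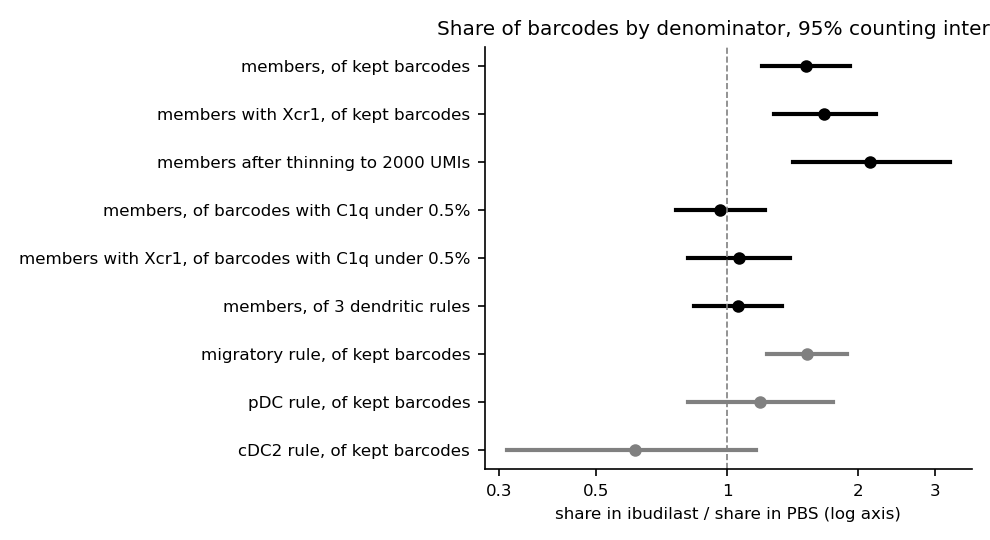
Ratio of the share of barcodes in the ibudilast library to that in the PBS library (log axis), with exact 95% intervals of the counts, for 6 ways of counting cDC1 (black) and for 3 other dendritic cell rules (grey). The ratio was 1.52 over all kept barcodes and 0.965 over barcodes with under 0.5% C1qa and C1qb.

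The genes that define cDC1 had like levels in both libraries. Of the 16 genes of the identity list with at least 20 UMIs over both libraries, 2 were counted as higher in the ibudilast library and 0 as lower, with a median log2 ratio of ibudilast to PBS of 0.04. Throughout, a gene counted as higher in the ibudilast members when the PBS members held under 0.8 of its ibudilast level, and as lower when the ibudilast members held under 0.8 of its PBS level. Over all 9225 genes tested, 19.5% were higher and 13.5% lower by this measure, with a median of 0.03. Over the 8782 genes tested in members with Xcr1 the shares were 21.8% and 12.4%. Each count of list genes below is to be read beside these shares. Naaa, from 871 to 800 CPM, had a ratio of 0.918, and Irf8, from 2016 to 2116 CPM, one of 1.05. Batf3, the partner of IRF8, stood at 224 and 206 CPM (0.919). Tlr3, the receptor for double-stranded RNA, stood at 119 and 141 CPM (1.18), and Cadm1, an adhesion molecule, at 68.6 and 75.0 CPM (1.09). Itgae, the integrin CD103, had a ratio of 0.851. The pair counted as higher were Rab7b, a lysosomal GTPase, at 157 and 214 CPM (1.36, 1.20 to 1.55), and Clnk at 13.0 and 18.5 CPM, whose interval of 0.901 to 2.28 includes 1. In the members with Xcr1 the median of the list was 0.00.

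Among 12 transcription factors of dendritic cells, 2 were higher and 2 lower, shares near those over all genes. Zeb2, a factor of cDC2 and pDC, stood at 57.3 CPM in PBS and 84.8 CPM in ibudilast (1.48, 1.20 to 1.84), and in members with Xcr1 at 26.8 and 61.2 CPM (2.29, 1.67 to 3.18). NK cells, which use Zeb2 themselves, held 128 and 284 CPM. Bcl6, a repressor used in cDC1 development, stood at 36.5 and 52.7 CPM (1.44, 1.10 to 1.89), against 5.75 and 11.2 CPM in NK cells. Klf4, a factor of myeloid cells, was lower, at 240 and 153 CPM (0.638, 0.563 to 0.723), but had a ratio of 2.27 in the 12 PBS and 31 ibudilast members left without the mixed barcodes. Among 7 genes of all conventional dendritic cells, Flt3, the growth factor receptor that maintains the lineage, stood at 97.5 and 130 CPM (1.33, 1.13 to 1.57), with 0 and 2.49 CPM in NK cells. Kmo, an enzyme of tryptophan breakdown, stood at 111 and 74.3 CPM (0.671, 0.558 to 0.805).

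Set against other dendritic cells, the members with Xcr1 kept a pattern of their own in both libraries. This pattern rests in part on the rule, and no test was made of it. Against the cDC2 rule, 14 of 16 identity genes were above 2-fold in both libraries, where 5.79% of 9031 genes were. Against the migratory rule 14 of 16 were as well, where 11.8% of 9974 genes were. Tlr3 stood at 140 CPM in PBS members with Xcr1, 2.73 CPM in the cDC2 rule and 3.67 CPM in the migratory rule. Ppt1, a lysosomal thioesterase, stood at 1054, 70.9 and 44.1 CPM, and Irf8 at 2058, 183 and 1143 CPM. Batf3 and Id2, a partner factor in the lineage, did not separate cDC1 from migratory cells, at 252 against 336 CPM and 1395 against 1537 CPM.

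Maturation and MHC genes were set beside those of migratory dendritic cells. The migratory rule took barcodes by Fscn1 and Ccr7, and the members' rule left out Fscn1, so low maturation genes in the members follow in part from the choice of barcodes. All 15 genes of the maturation list were under 0.5-fold of the migratory rule in both libraries, and 11 of 16 costimulation genes were, where 11.5% of all genes were. Relb, an NF-kB subunit of mature dendritic cells, stood at 40.1 CPM in PBS members with Xcr1 and 663 CPM in the migratory rule. The chemokine gene Ccl22 stood at 65.4 and 1270 CPM. Of 11 MHC class II genes, 8 were above 2-fold of the migratory rule, and 0 lay beyond 2-fold either way of the cDC2 rule: H2-Aa stood at 9567 CPM in members with Xcr1, 10420 CPM in the cDC2 rule and 4738 CPM in the migratory rule. Of 19 type I interferon genes, 7 were under 0.5-fold of the cDC2 rule in both libraries, where 5.94% of all genes were.

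The MHC genes differed little between the libraries. None of the 15 MHC class I genes and none of the 11 MHC class II genes counted as higher or lower, in all members or in members with Xcr1, and the medians of the 2 lists were 0.03 and 0.00 in all members. H2-K1, a class I heavy chain, stood at 2014 and 2109 CPM, and B2m, its light chain, at 2809 and 2879 CPM. Tap1, the peptide transporter, had a ratio of 1.13. H2-Aa stood at 8779 and 8769 CPM and Ciita, the activator of class II genes, at 228 and 237 CPM. Cd74, the invariant chain and also the receptor of MIF, stood at 16186 and 14004 CPM (0.865, 0.853 to 0.877). Summed per barcode, class II genes had a median of 48897 CPM in PBS members with Xcr1 and 46460 CPM in ibudilast ones, with overlapping ranges of 16848 to 81061 and 5623 to 136972 CPM.

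Genes of dead cell uptake and cross-presentation were mostly inside the limits. Of 8 uptake genes outside the rule, 2 were higher and 1 lower. Havcr2, the receptor TIM-3 that restrains cDC1, stood at 120 and 153 CPM (1.28, 1.10 to 1.48), and Syk, the kinase downstream of CLEC9A, had a ratio of 0.785. In members with Xcr1 the ratio of Havcr2 was 1.16, and without the mixed barcodes 0.675. Of 14 cross-presentation genes, 2 were higher and 0 lower. Rab39, an endosomal GTPase, stood at 10.6 and 22.3 CPM (2.12, 1.32 to 3.48) and at a ratio of 2.26 with Xcr1, beside 0.638 and 0.831 CPM in NK cells. Wdfy4, from 305 to 329 CPM, had a ratio of 1.08 and Sec22b, a vesicle fusion protein, one of 0.998.

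Of the lists of cell functions, type I interferon response genes had the highest median ratio in members with Xcr1. These genes are switched on when interferon alpha or beta binds its receptor, and they code for antiviral proteins. Of 19 tested, 9 were higher and 0 lower, with a median log2 ratio of 0.30. In members with Xcr1, 14 of 19 were higher and 0 lower, with a median of 0.41. The median over all 8782 genes tested there was 0.05, and 21.8% of them were higher and 12.4% lower. The median of the list ran from 0.17 to 0.53 over the other ways of choosing and weighting members.

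The promoters of 4 of these genes are shown because the list is known for the interferon-stimulated response element. Each line is 120 bases of the RefSeq promoter on GRCm38.p6, read 5′ to 3′ along the gene, from 160 to 41 bases before the annotated start. Capitals mark GAAANNGAAA on either strand, where overlapping matches run together.
Ifit1, chr19:34640729-34640848, plus strand: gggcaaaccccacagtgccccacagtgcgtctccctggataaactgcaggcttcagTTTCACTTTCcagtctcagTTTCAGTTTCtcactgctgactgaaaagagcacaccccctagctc
Ifit3, chr19:34583369-34583488, plus strand: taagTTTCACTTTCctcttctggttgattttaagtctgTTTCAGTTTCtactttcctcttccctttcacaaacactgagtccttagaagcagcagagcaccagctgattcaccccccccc
Isg15, chr4:156200859-156200978, minus strand: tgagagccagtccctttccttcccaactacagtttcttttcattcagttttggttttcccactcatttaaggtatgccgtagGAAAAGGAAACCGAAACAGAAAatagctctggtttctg
Rsad2, chr12:26456493-26456612, minus strand: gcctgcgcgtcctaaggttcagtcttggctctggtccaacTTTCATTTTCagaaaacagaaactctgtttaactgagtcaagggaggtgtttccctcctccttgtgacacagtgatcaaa
In windows from 250 bases before to 50 bases after a start, 8 of the 14 list genes found in the RefSeq table held the motif (57.1%), against 3.99% of all 27025 genes and 3.44% of all 32851 windows of that length. The match is a description of these letters and not a measured binding site.

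The 4 genes shown were each higher in the ibudilast members, both in all members and in those with Xcr1. Over the list a match did not always go with a higher level. In members with Xcr1, without the 5 richest barcodes of each library, Bst2, with 2 matches, had a ratio of 1.02. Ifit2 and Oasl2, with 0 matches, had ratios of 3.18 and 1.66. Whether the motif bears on the level was not tested. Ifit3, an antiviral scaffold protein, stood at 81.6 CPM in PBS and 163 CPM in ibudilast (1.99, 1.69 to 2.36), and in members with Xcr1 at 34.7 and 135 CPM (3.89, 3.00 to 5.11). Its UMIs were spread over barcodes: 30 of 95 PBS and 64 of 138 ibudilast members with Xcr1 held at least 1, and without the 5 richest barcodes of each library the ratio was 4.59. Ifit1, a sensor of foreign RNA caps, stood at 32.5 and 67.7 CPM (2.08, 1.60 to 2.74). Isg15, a ubiquitin-like protein, stood at 547 and 780 CPM (1.43, 1.33 to 1.53), and with Xcr1 at 425 and 747 CPM (1.76, 1.62 to 1.91). Rsad2, the antiviral enzyme viperin, stood at 92.6 and 137 CPM (1.48, 1.26 to 1.75), and with Xcr1 at 39.6 and 107 CPM (2.71, 2.10 to 3.52). Ifit3b, a near-identical copy of Ifit3 with which it can share reads, held 4 and 52 UMIs in members with Xcr1. Other cells ran in the same direction: Ifit3 stood at 112 and 230 CPM in NK cells and at 168 and 225 CPM in T cells, and Isg15 at 240 and 419 CPM in NK cells. The level of Ifit3 in members with Xcr1 was thus below that of both, and a higher ibudilast level was also seen outside cDC1. Free RNA of these genes was not measured, and its part in the result was not tested.

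The rest of the list differed less. Stat2, a signal transducer of the interferon receptor, had a ratio of 1.20 and Irf7, which amplifies the response, one of 1.12. Rtp4 stood at 38.6 and 67.0 CPM (1.74). Bst2, a tetherin that pDC also express, had a ratio of 0.812 over all members and 0.996 in those with Xcr1. Among the sensors upstream, Cgas, which detects DNA in the cytosol, stood at 26.4 and 43.6 CPM (1.65, 1.22 to 2.27), and Ddx58, the RNA sensor RIG-I, had a ratio of 1.28. Ifnb1 had no UMI in the members of either library, so the transcript of interferon beta was not detectable in them at this depth.

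Barcode by barcode, the interferon list overlapped between the libraries. In PBS members with Xcr1 its sum ran from 877 to 18756 CPM with a median of 3645, and in ibudilast members with Xcr1 from 680 to 22893 CPM with a median of 4149. Members without Xcr1 had medians of 6971 and 6749 CPM. The difference between the medians was smaller than the spread between barcodes of either library.

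Monocyte genes moved in the same direction as the interferon genes. In members with Xcr1 the monocyte list summed to 2122 CPM in PBS and 2827 CPM in ibudilast. Ly6c2, an antigen of inflammatory monocytes, stood at 176 and 348 CPM, Plac8 at 1878 and 2353 CPM, and Chil3 at 0.495 and 12.2 CPM, while Vcan was at 0 in PBS. Ly6c2 also differed in NK cells, at 247 and 557 CPM. Their part in the interferon result was not tested as a cause, but the members with no Ly6c2 UMI, 46 and 52 in number, were counted apart. In these Ifit3 stood at 36.0 and 129 CPM (3.59, 2.41 to 5.48), and Isg15 had a ratio of 1.51 and Rsad2 one of 2.04. Of 17 list genes, 6 were higher there and 3 lower (Oasl2 at 0.677, Cmpk2 at 0.751 and Xaf1 at 0.794), where 22.8% and 19.9% of all 6468 genes were. In the members with Ly6c2, 14 of 19 were higher and 0 lower, where 24.9% and 13.8% of 7699 genes were. Without the mixed barcodes, 12 PBS and 31 ibudilast members remained, which can still hold monocyte RNA, and Ifit3 had a ratio of 0.666 and Isg15 one of 0.877.

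**Figure D3:**
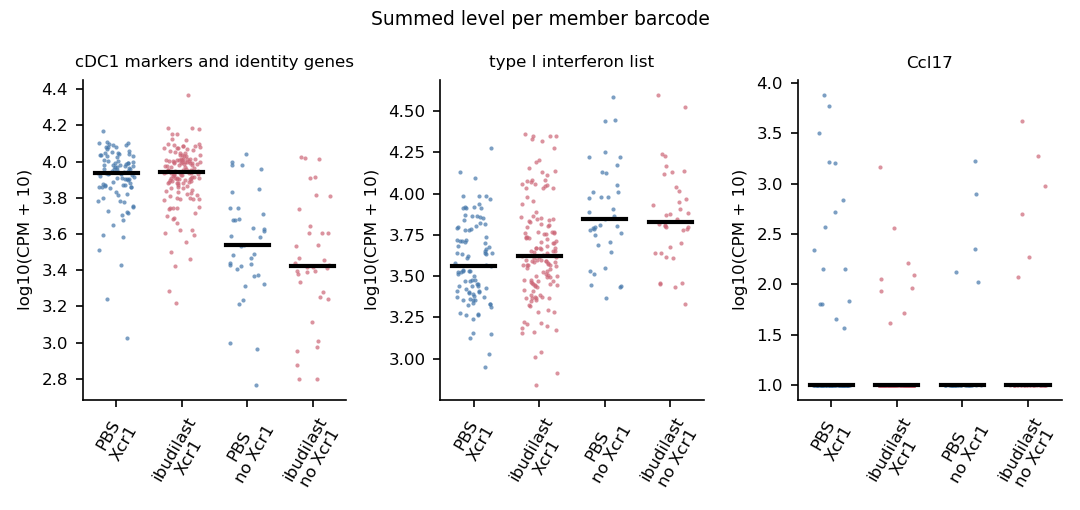
Each point is 1 member barcode in the PBS or ibudilast library, with or without Xcr1; the panels give log10(CPM + 10) of the summed cDC1 identity genes, of the summed type I interferon list and of Ccl17, and bars are medians. The identity medians were 8648 and 8708 CPM with Xcr1, the interferon medians 3645 and 4149 CPM, and the Ccl17 points above 0 were 16 of 95 and 9 of 138.

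Genes known to answer to interferon gamma lay nearer to 1. Of 15, 3 were higher and 0 lower, where 19.5% and 13.5% of all genes were, and their median was 0.06. In members with Xcr1, 6 of 15 were higher and 0 lower, where 21.8% and 12.4% of all genes were. The median there was 0.16, against 0.05 over all genes. Gbp2, a GTPase that acts on pathogen vacuoles, had a ratio of 1.35 and Irgm1 one of 1.29. Cxcl9, the gene of this list that cDC1 are known for, stood at 1165 and 1232 CPM (1.06). After thinning to 2000 UMIs, 44.2% and 43.8% of members with Xcr1 held a UMI of it. NK cells held 146 and 197 CPM of Cxcl9, well under the members' level. Ido1 held 1 and 2 UMIs.

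Among the chemokines, Ccl17 was lower and Ccl2 higher in the ibudilast members. Of 18 cytokine and chemokine genes tested, 4 were higher and 4 lower, where 19.5% and 13.5% of all genes were. Ccl17, a ligand of CCR4, stood at 233 CPM in PBS and 54.8 CPM in ibudilast (0.235, 0.196 to 0.281), and in members with Xcr1 at 260 and 19.8 CPM (0.0763, 0.0557 to 0.102). Few barcodes carried it: 16 of 95 and 9 of 138 members with Xcr1 held a UMI, and the top 5 held 93.9% and 87.8% of its UMIs. Without those 5 the levels were 16.9 and 2.55 CPM (0.151). The 2 richest PBS barcodes held 171 and 164 of the 525 PBS UMIs, with 2 Xcr1 UMIs each. Their Naaa stood at 134 and 72.3 CPM, against a median of 1015 CPM in PBS members with Xcr1. The next, with 95 UMIs of Ccl17, held 9 Xcr1 UMIs and Naaa at 864 CPM. Much of the PBS level thus came from barcodes with little Xcr1 and Naaa. Summed over Wdfy4, Naaa, Irf8 and the identity list, the 2 richest barcodes stood at 7190 and 3253 CPM. The PBS members with Xcr1 had a median of 8648 CPM and a lower quartile of 7193 CPM, so only the second was weak on all these markers together. In members without Xcr1, Ccl17 stood at 110 and 272 CPM, but the top barcode held 59.2% and 39.8% of its UMIs. The top 5 held 100% and 99.1%, so no direction is given for these members. NK cells held 0.638 and 1.66 CPM and T cells 14.2 and 1.84 CPM of Ccl17. The lower level was also seen in the cDC2 rule, at 303 and 11.8 CPM, and the migratory rule, at 537 and 198 CPM.

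Ccl2, a ligand of CCR2 that draws monocytes, stood at 45.9 and 137 CPM (3.00, 2.43 to 3.73), at a ratio of 2.67 with Xcr1 and of 1.83 there without the 5 richest barcodes. Ccl7, its neighbour in function, stood at 19.1 and 41.2 CPM (2.16), but with Xcr1 and without the 5 richest barcodes its ratio was 0.813. Cxcl2, a ligand of CXCR2 on neutrophils, stood at 111 and 53.7 CPM (0.485, 0.395 to 0.593). Cxcl2 had a ratio of 1.04 among the members not called cycling. Cxcl10 was at 298 and 315 CPM over all members and at 106 and 266 CPM with Xcr1 (2.51, 2.15 to 2.94). Without Xcr1 it was at 1174 and 621 CPM, but the top barcode held 47.8% and 27.6% of its UMIs there. The top 5 held 93.5% and 87.8%, so no direction is given for Cxcl10 in members without Xcr1. After thinning, a UMI of Cxcl10 was held by 9.47% of PBS and 23.4% of ibudilast members with Xcr1. Ccl4, an inflammatory chemokine, ran from 199 to 330 CPM in members with Xcr1 (1.66, 1.47 to 1.88) but had a ratio of 1.01 over all members. Ccl5 had a ratio of 1.23 and Cxcl16 one of 1.07.

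With Xcr1 present, the levels of Ccl2, Ccl7, Cxcl2, Cxcl10, Ccl4 and Ccl5 were no higher than those in T or NK cells, while Cxcl9 was. T cells held 154 and 141 CPM of Ccl2, 66.6 and 62.6 CPM of Ccl7 and 321 and 296 CPM of Cxcl10, and NK cells held 142 and 81.1 CPM of Cxcl2. Macrophages held 466 and 326 CPM of Ccl2 and 407 and 273 CPM of Ccl7. Neither T nor NK cells are known as a main source of CCL2 or CXCL2. Cxcl10 was uneven between the members with Xcr1: 49 of 95 in PBS and 74 of 138 in ibudilast held no UMI. The top 5 barcodes held 53.7% and 51.1% of its UMIs there. Which cells made the Ccl2, Ccl7, Cxcl2 and Cxcl10 RNA in members with Xcr1 was not tested, so it is assigned neither to cDC1 nor to other cells.

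Interleukin transcripts were sparse. Il12b, the shared subunit of IL-12 and IL-23, held 16 and 48 UMIs over all members, of which 1 ibudilast barcode held 70.8%, and 15 and 12 UMIs in members with Xcr1. Il12a held 1 and 0 UMIs. Il27 held 7 and 25 UMIs (3.07, 1.29 to 8.40), and Il10 0 and 6. Il1b, an inflammatory cytokine, stood at 269 and 220 CPM (0.819). The difference of Il12b over all members thus rested on 1 barcode.

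**Figure D4:**
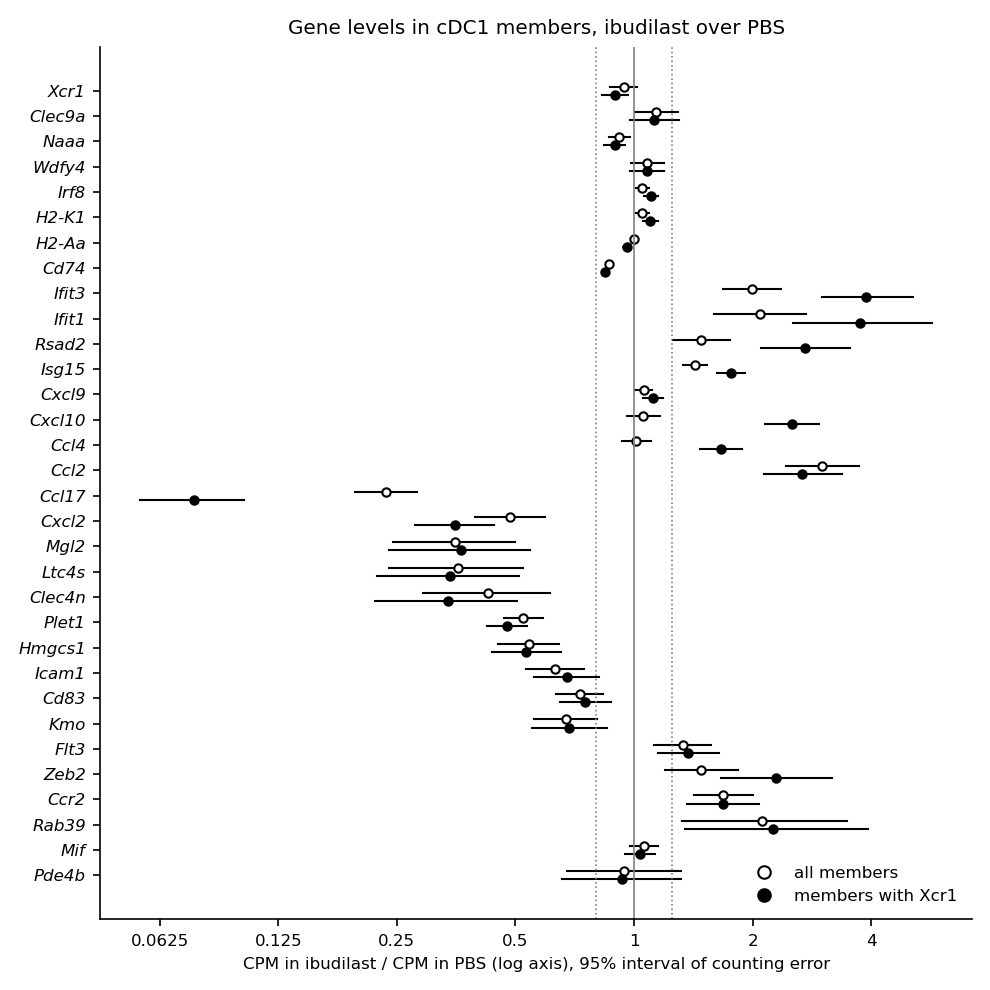
Ratio of CPM in the ibudilast library to that in the PBS library (log axis) for marker, interferon, chemokine and other genes named in the text, over all members (open) and over members with Xcr1 (filled), with exact 95% intervals of the counts and dotted lines at 0.8 and its inverse. Ccl17 lay at 0.0763 and Ifit3 at 3.89 in members with Xcr1.

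Costimulation genes gave no common direction, and the median of the maturation genes changed sign between settings. Of 12 costimulation genes tested out of 16, 4 were higher and 2 lower. Cd274, the checkpoint ligand PD-L1, stood at 43.5 and 57.2 CPM (1.32, 1.03 to 1.70), and at a ratio of 1.19 with Xcr1. Cd83 stood at 186 and 135 CPM (0.728, 0.634 to 0.835), while Cd86, a ligand of CD28, had a ratio of 1.09 and Cd40 one of 0.895. Cd70 had no UMI. Of 13 maturation genes tested out of 15, 2 were higher and 6 lower, where 19.5% and 13.5% of all genes were. Their median was -0.22, but this median ran from -0.91 to 0.25 over the other settings. In members with Xcr1, 1 of 8 was higher and 3 were lower, with a median of -0.11. Ccr7 stood at 54.4 and 12.2 CPM (0.225), with 70.2% of its PBS UMIs in 1 barcode and a ratio of 0.430 without the richest barcodes. Ccl22 had a ratio of 0.691, and of 1.32 without the richest barcodes, so neither direction is given for it.

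Receptor genes gave no common direction. Of 8 chemokine receptor genes tested, 2 were higher and 3 lower, where 19.5% and 13.5% of all genes were. Ccr2, the receptor of CCL2 and a monocyte gene, stood at 83.7 and 141 CPM (1.69, 1.42 to 2.00), and at 67.4 and 113 CPM with Xcr1. Cxcr4 had a ratio of 1.30 and Ccr1 one of 0.635. Of 16 cytokine and growth factor receptor genes, 2 were higher and 1 lower. Ptger2, a receptor of prostaglandin E2 that signals through cyclic AMP, held 15 and 33 UMIs (1.89). In members with Xcr1, 5 of the 16 were higher and 1 lower, where 21.8% and 12.4% of all genes were.

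Cycling members made up a like share of both libraries. A member was called cycling with at least 2 UMIs over 8 cell division genes after thinning to 2000 UMIs. By this measure 13 of 132 PBS members (9.85%, 5.35 to 16.3%) and 18 of 171 ibudilast members (10.5%, 6.36 to 16.1%) were cycling, a ratio of 1.07 (0.495 to 2.37), with 3 shallower ibudilast members left out. Unthinned, the shares were 26.5% and 31.0%. In the migratory rule the thinned shares were 1.94% and 1.46%, and in T cells 14.6% and 15.3%. The members' shares lay between those of the migratory dendritic cells and the T cells. Phase calls also read free RNA, whose part was not tested.

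The cell cycle list had a median of 0.24, against 0.03 over all genes, with 9 of 22 higher and 0 lower, where 19.5% and 13.5% of all genes were. In members with Xcr1 its median was 0.16, against 0.05 over all genes. There 5 of 22 were higher, a share near the 21.8% of all genes, and 0 were lower, where 12.4% of all genes were. Among the higher genes were those of mitosis: Ccnb1, the mitotic cyclin, held 15 and 46 UMIs (2.63), and Ube2c, a ubiquitin-conjugating enzyme of mitotic exit, stood at 43.0 and 69.1 CPM (1.60). Mki67 had a ratio of 1.20 and Top2a 1.05. The Mcm genes of replication ran from 0.947 to 1.09.

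Within the members with Xcr1, those with at least 2 unthinned UMIs of the cell division genes, 31 in PBS and 48 in ibudilast, held less Cxcl9 and Isg15 than the rest in both libraries. This split also takes deeper barcodes: the medians were 27671 and 23625 UMIs in the cycling and 17630 and 15598 in the others. The top 5 members with Xcr1 held 38.3% and 45.4% of the Cxcl9 UMIs. What part depth and these few barcodes have in the difference was not tested. Cxcl9 stood at 763 and 572 CPM in the cycling and at 1300 and 1702 CPM in the others. Isg15 stood at 275 and 492 CPM in the cycling and at 534 and 951 CPM in the others. In both sets Isg15 was higher in the ibudilast library. Ccl22 had no common direction, at 111 and 3.64 CPM in the cycling and 32.5 and 40.8 CPM in the others. Naaa stood at 973 and 947 CPM against 1013 and 844 CPM.

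Metabolic, lysosomal and signalling lists lay near 1. Of 18 glycolysis genes, 1 was higher and 1 lower. None of 16 oxidative phosphorylation genes was higher or lower, with a median of -0.11. Of 12 cathepsin and lysosome genes, 0 were higher and 2 lower: Ctsz, a carboxypeptidase, at 703 and 556 CPM (0.790), and Ctsl, which processes antigen, at 147 and 94.2 CPM (0.641), whose ratio was near 1 in members with Xcr1. Of 13 lipid genes, 2 were higher and 3 lower, the latter with Hmgcs1, an enzyme of cholesterol synthesis, at 133 and 71.9 CPM (0.541, 0.453 to 0.646). Hmgcs1 was also lower in the migratory rule, at 175 and 94.0 CPM, but stood at 109 and 118 CPM in the cDC2 rule. Among 16 NF-kB targets, 3 were higher and 2 lower, with Traf1, an adaptor of TNF receptors, at 154 and 202 CPM (1.31, but 0.725 without the mixed barcodes) and Icam1, an adhesion molecule for T cells, at 135 and 84.8 CPM (0.629, 0.531 to 0.744). Of 14 genes known to respond to tissue dissociation, 0 were higher and 1 lower, Dnajb1 at 376 and 272 CPM (0.723, 0.657 to 0.796).

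Of the known targets of ibudilast, the phosphodiesterase genes were weakly detected and Mif was well detected. Of 11 phosphodiesterase genes, 6 had at least 20 UMIs, with 1 higher and 1 lower, where 19.5% and 13.5% of all genes were. Pde4b, an enzyme that breaks down cyclic AMP, held 72 and 79 UMIs (0.943, 0.676 to 1.32), and Pde4d held 1 and 1. Mif stood at 424 and 449 CPM (1.06, 0.975 to 1.15), and of 5 MIF-related genes tested 1 was higher and 2 lower. Of 11 targets of CREB, the factor that cyclic AMP activates, 3 were higher and 1 lower. Nr4a2, a nuclear receptor of that list, stood at 10.6 and 25.1 CPM (2.38, 1.50 to 3.88), and at a ratio of 3.18 with Xcr1. Rgs2, which damps G protein signals, stood at 362 and 473 CPM (1.30), and Fosb had a ratio of 1.04.

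**Figure D5:**
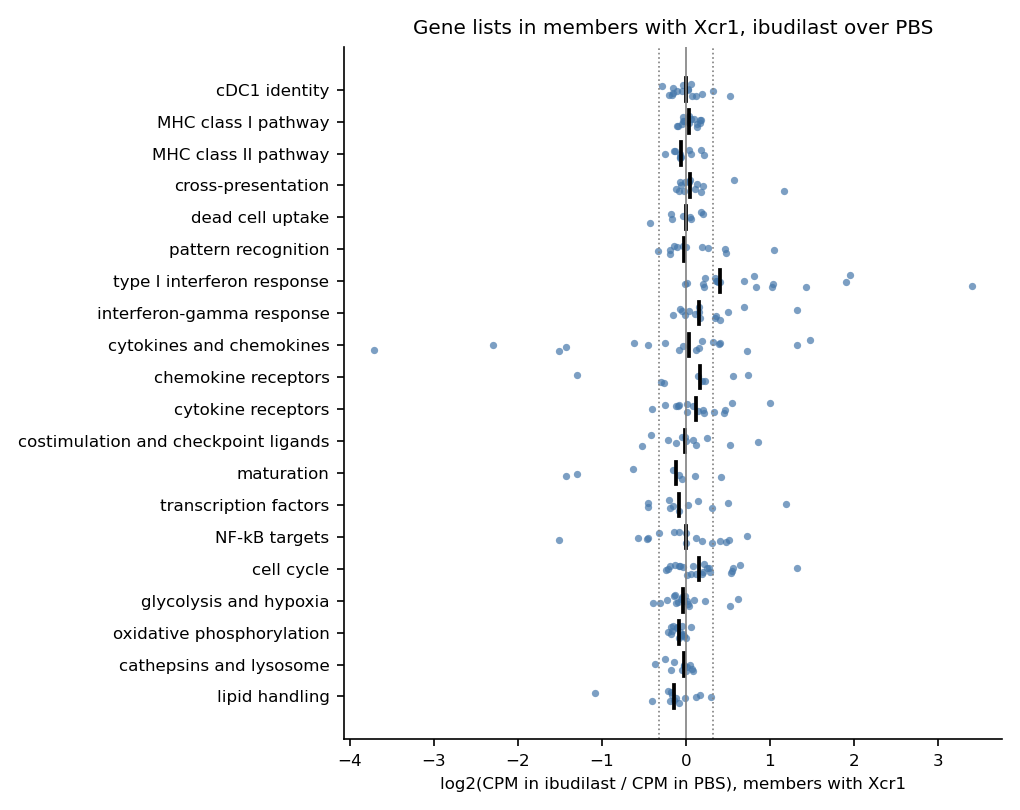
Log2 ratio of ibudilast to PBS in members with Xcr1 for the genes of 20 lists (points) with the median of each (bar) and dotted lines at a ratio of 0.8 and its inverse. The median of the type I interferon list was 0.41 and that of the MHC class II list -0.06.

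Over all 9225 genes tested, 1.04% had their whole interval on the higher side of the limit and 1.01% on the lower side. In members with Xcr1 the shares were 1.32% and 0.615% of 8782 genes. Genes were then ranked by the interval bound nearest to 1, among the 6814 that held 50 UMIs or more and were detected in 10% or more of the members of the higher library, where 59 had the bound beyond the limit on the higher side and 57 on the lower. For several of the 12 highest, 1 barcode held most UMIs, though each of these was still higher without it. Gzmb, a cytotoxic granule protease, stood at 6.90 and 52.0 CPM (7.53, 4.55 to 13.3), with 75.8% of its ibudilast UMIs in 1 barcode and a ratio of 3.87 without the richest. NK cells held 2122 and 2173 CPM of Gzmb. Gclc, of glutathione synthesis, had a ratio of 4.24, with 68.9% in 1 barcode and 1.52 without it. Gpnmb, a gene of lipid-loaded macrophages, had a ratio of 2.92 with 80.4% in 1 barcode, of 1.43 without it, and of 0.579 in members with Xcr1. The others were Ccl2, Ccl7, Ifit1, Ifit3, Slfn9 (9.34 and 29.3 CPM), Cenpa, a centromere histone (16.7 and 42.6 CPM), Atf5, a stress-response factor (9.34 and 24.1 CPM), Trim21, an antibody receptor in the cytosol (7.72 and 20.6 CPM), and Calhm6 (35.7 and 72.2 CPM).

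At the lower end over all members, Ccl17 was followed by genes of pDC. Siglech stood at 168 and 56.5 CPM (0.337) and Ly6d at 340 and 125 CPM (0.368). In members with Xcr1, Siglech stood at 5.94 and 6.07 CPM (1.02) and Ly6d held 4 and 2 UMIs, so their difference sat in the members without Xcr1. Cd8a, which mouse pDC and cDC1 can carry, stood at 48.3 and 15.0 CPM (0.311) and at a ratio of 0.579 with Xcr1. Atp1b1, Smim5, Mctp2, Rab3d, Cd8b1 and Il7r were also among the 12, with ratios of 0.248 to 0.434.

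Of the 12 lowest, Ccl17, Mgl2 and Ltc4s were also among the 12 lowest in the members with Xcr1. Mgl2, a lectin of cDC2, stood at 46.7 and 16.4 CPM (0.351), and at 221 and 59.1 CPM in the cDC2 rule and 130 and 45.9 CPM in macrophages. Ltc4s, an enzyme of leukotriene synthesis, stood at 38.2 and 13.6 CPM (0.357). In the members with Xcr1 the 12 lowest also held Plet1, a membrane protein, at 389 and 186 CPM (0.476). Plet1 was spread over barcodes, with a UMI in 55 of 95 PBS and 42 of 138 ibudilast members with Xcr1 and a ratio of 0.395 without the 5 richest of each. NK cells held 0.638 and 6.65 CPM and T cells 24.2 and 5.22 CPM of it. Plet1 was also lower in the cDC2 rule, at 305 and 154 CPM. Clec4n, the fungal receptor dectin-2, stood at 42.1 and 14.2 CPM (0.337) in members with Xcr1, AA467197 at 165 and 82.2 CPM (0.497), Ltb, lymphotoxin beta, at 26.8 and 10.1 CPM, and Xlr at 34.7 and 16.2 CPM (0.467). Pianp stood at 39.1 and 16.6 CPM (0.424) in the same members and at 1.28 and 0.416 CPM in NK cells. At the higher end of the members with Xcr1, Slfn4, an interferon-induced gene, stood at 10.9 and 34.8 CPM (3.20). Apod, an oligodendrocyte gene, stood at 12.9 and 53.9 CPM there, beside an oligodendrocyte list at 77.8 and 155 CPM.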

How the data were processed

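The authors deposited 1 matrix of raw UMI counts per gene and barcode for each library, which name Cell Ranger 6.1.1, per the file headers. The genome build was mm10, per the submitters' processing notes. Libraries were 10x 3' v3.1 per the labels' protocols. The deposited tables hold called cells (lowest totals 501 and 500 UMIs, 31253 genes). The PBS library held 8968 barcodes and 119113794 UMIs, and the ibudilast library 8483 and 82196922. After the limits on genes, UMIs and mitochondrial share, 8155 and 7079 barcodes were kept. Empty droplets were not used here.

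UMIs of the members were summed per library and given as CPM of the members' total. No test was made. Shares have Clopper-Pearson intervals, and ratios exact conditional binomial intervals (95%). These intervals are too narrow where few barcodes hold most UMIs of a gene. Genes with at least 20 UMIs over both libraries were counted, and log2 ratios of lists used a pseudocount of 0.5 UMI. Named genes were all identity markers, the 12 genes at each end of the ranking by the interval bound nearest to 1, Mif, Cd74, Pde4b, Pde4d and at most 8 genes per list. The cDC2 rule took Cd209a of at least 2 UMIs with no Xcr1 or Clec9a, and the migratory rule Fscn1 of at least 2 with Ccr7. Members, lists and rules were chosen with earlier results of these data known. The splits by Xcr1, by Ly6c2 and by the richest barcodes were added after these data were seen. Scrublet called 0 doublets in each library and so did not work here, and the 6% of barcodes with the highest scores were left out as an alternative instead. Alternatives changed the members, depth, weights, scaling and count minimum. Intervals were tried on simulated Poisson counts with no spread between barcodes, so that trial says nothing of how they do under such spread. Tools were Python 3.11.15, numpy 2.4.6, scipy 1.17.1, pandas 2.3.3, scanpy 1.11.5, and R 4.3.3 with edgeR 4.0.16 for the trimmed mean of M values only. Promoter sequences come from RefSeq (GRCm38.p6). Genes absent from the files used are not analysed here.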

Additional observations from a re-analysis of the deposited data

How the results depend on the processing

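The share of cDC1 over all kept barcodes kept a ratio above 1 under every other choice of members tried, at 1.48 to 2.98. It was 2.98 without mixed barcodes (12 and 31 left) and 2.13 after thinning. It fell to 0.965 over barcodes with under 0.5% C1qa and C1qb, 1.06 for members with Xcr1 over that base, and 1.06 over the 3 dendritic cell rules. Of 9225 genes, 1799 counted as higher and 1242 as lower. Without mixed barcodes 762 (28.9%) and 679 (25.7%) of 2639 genes did, with at least 50 UMIs 1117 (15.7%) and 705 (9.88%) of 7134, and with at least 1 UMI 4098 (29.3%) and 2836 (20.3%) of 13982. After thinning 889 of 3651 genes (24.3%) counted as higher. The number of genes tested changes by construction. The other 2 scalings moved all log2 ratios by 0.010 and 0.022.

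Of 685 gene ratios under other settings, 542 kept their call, 124 moved and 19 changed direction. With Xcr1 and Clec9a summing to at least 3, Siglech stood at 1.58, Ly6d at 4.10, Atp1b1 at 1.60, Smim5 at 3.19 and Ccl22 at 1.09. Without mixed barcodes, Ifit3 stood at 0.666, Isg15 at 0.877, Havcr2 at 0.675, Traf1 at 0.725, Klf4 at 2.27 and Ccl22 at 9.32. Ccl22 also stood at 1.10 with members weighted alike, 2.09 among members not called cycling and 1.32 without its richest barcodes, and Cxcl2 at 1.04 among those not cycling. Gpnmb stood at 0.387 with Xcr1 and Clec9a both present, 0.542 without the highest Scrublet scores and 0.579 with Xcr1, where Siglech stood at 1.02. The cause was not tested. Of 362 list medians, 298 stayed and 64 moved, and the ratio of cycling shares, 1.07, ran from 0.907 with Xcr1 and 0.925 with a sum of at least 3 to 1.17 without thinning, all within its interval. A gene with under 20 UMIs under a setting has no value there, and no cycling ratio was had without mixed barcodes, since 0 of the 12 PBS barcodes cycled. No paired analysis was possible because each group has 1 library.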
